A study of Mus musculus with 14 samples.

Results

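H3K27ac, the acetylation of histone H3 lysine 27 that marks active promoters and enhancers, was examined at 10 mouse genes for AP-1 and related stress-response transcription factors. They were Fos, Fosb, Fosl2, Jun, Junb, Jund, Atf3, Batf3, Maff and Bach1, chosen by name as 10 of the 21883 protein-coding genes in the RefSeq gene table. The cells were CD11b+ tumour-associated macrophages (TAMs), sorted by flow cytometry from T387 glioblastoma (GBM) xenografts grown in the brains of NSG mice. NSG mice lack mature lymphocytes and keep host myeloid cells. Pracinostat, an inhibitor of histone deacetylases, was given by gavage at 30 mg/kg, starting on day 7 of tumour growth and repeated 4 times weekly over 3 weeks, although the text on its preparation gives 3 mg/kg. The control mice, labelled DMSO, received the solvent mixture (DMSO, PEG300, Tween-80 and PBS) without the drug. CUT&Tag, which inserts sequencing adapters at antibody-bound chromatin, was run with an H3K27ac antibody on 3 DMSO and 4 pracinostat samples, and with rabbit IgG as the background control on the same numbers. The labels call these biological replicates without saying which animal or pool gave each library, and they give no age for the mice.

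AP-1 is a dimer of basic leucine zipper proteins, formed by Fos and Jun family members with each other or with ATF family partners. Many of its genes are immediate early genes, which are transcribed within minutes of a growth factor, cytokine or stress signal through factors already bound at their promoters. In macrophages AP-1 acts with the lineage factor PU.1 at enhancers, and it is used in inflammatory activation. The question the design puts to these genes is whether the histone mark at their promoters and nearby enhancers held a different place among all genes after the deacetylase inhibitor.

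The deposited data are lists of summits, the single-base positions of strongest signal within called peaks, each with a score that is the −log10 of a p or q value. The H3K27ac libraries held 208401, 53503 and 291042 summits in DMSO replicates 1 to 3 and 229609 to 289017 in the pracinostat replicates. DMSO replicate 2 stood apart before any comparison: it held the fewest summits, 65.28% of them tied at its lowest score, against 15.19% to 25.15% in the other 6 libraries. For the 10 genes, values without it are given beside the results it moves and for each gene where the comparison is summed up. For genes of other lists, and under other processing settings, they are not given. IgG lists held 2194 to 18517 summits. Scores are not comparable between libraries, so each gene took its highest summit score and was ranked within its own library. A percentile of 100 is the strongest gene of a library, and an increase at all sites alike would leave these percentiles where they were. Against the labelled cell type, the 14 microglia and macrophage markers had a mean gene-end percentile of 64.2 ± 2.07 (SD, n = 3) in DMSO and 73.8 ± 5.31 (SD, n = 4) in pracinostat, and the 12 ranked of 15 neutrophil markers had 31.6 ± 5.80 and 20.9 ± 3.31. The 8 dendritic cell markers had 29.9 ± 2.87 and 35.2 ± 4.09, with Xcr1 alone as high as 94.1 ± 8.24 in DMSO. Spi1, which encodes PU.1, was at 91.9 ± 3.43 and 90.9 ± 14.5. Itgam, which encodes CD11b, lay at 39.9 ± 8.96 (SD, n = 3) and 52.8 ± 10.1 (SD, n = 4).

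The sequences before the start sites of 4 of the genes are shown because they carry known promoter elements. The regions over the starts of Jun, Fos and Atf3 were marked in all 7 H3K27ac libraries, with the strongest summit at positions that differed between libraries. They come from RefSeq on build GRCm38.p6 (mm10), end at the base before the annotated start, and read 5′ to 3′ on the gene's own strand. Capitals mark the element. The Jun sequence, at chr4:95052223-95052472 on the minus strand, holds TGACATCA, the element known as a Jun-type site, 45 to 38 bases before the start. The Fos sequence, at chr12:85473640-85473889 on the plus strand, holds the TATA box letters TATAAA 33 to 28 bases before the start. The Atf3 sequence, at chr1:191183334-191183583 on the minus strand, holds TTACGTCA 10 to 3 bases before the start. Maff has 3 annotated starts, and a stretch of 30 bases is shown around each of its elements, both on the plus strand. The stretch with TGACGTCA, the cyclic AMP element, is chr15:79347480-79347509, and the stretch with TGACATCA is chr15:79348346-79348375.
Jun: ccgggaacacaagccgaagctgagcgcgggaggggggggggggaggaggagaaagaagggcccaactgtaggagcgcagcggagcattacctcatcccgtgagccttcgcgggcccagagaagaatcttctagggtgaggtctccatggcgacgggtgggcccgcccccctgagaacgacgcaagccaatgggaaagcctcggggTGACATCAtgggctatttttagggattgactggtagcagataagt
Fos: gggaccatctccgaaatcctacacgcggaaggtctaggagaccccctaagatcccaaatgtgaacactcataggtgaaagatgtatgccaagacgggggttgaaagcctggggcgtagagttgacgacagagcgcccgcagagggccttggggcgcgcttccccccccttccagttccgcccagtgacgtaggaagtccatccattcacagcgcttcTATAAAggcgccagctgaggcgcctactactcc
Atf3: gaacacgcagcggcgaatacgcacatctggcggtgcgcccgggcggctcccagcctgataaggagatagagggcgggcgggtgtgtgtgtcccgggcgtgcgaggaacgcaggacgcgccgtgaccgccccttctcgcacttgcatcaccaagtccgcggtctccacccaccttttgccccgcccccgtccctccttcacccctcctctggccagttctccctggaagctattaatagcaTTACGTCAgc
Maff, start at base 79347520: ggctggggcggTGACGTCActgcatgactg
Maff, start at base 79348402: ctggagccatgTGACATCAgtgtttgttcc

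Each element was searched on both strands in the 250 bases before 32851 promoters, among them 12 promoters of the 10 genes. TGACATCA was present in 2.928% of all promoters and in 2 of the 12, those of Jun and of 1 Maff start. TGACGTCA was present in 1.546% and in 1 of the 12. TTACGTCA, added after the Atf3 sequence had been read, was present in 0.447% and in 1 of the 12. TATAAA was present in 12.368% and in 1 of the 12. The AP-1 site TGANTCA, in 6.749% of promoters, and the CArG box bound by serum response factor, in 1.467%, had no match in the 12. A match, or the lack of one, describes the letters in these windows only, and bases farther before the start were not searched.

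Nearly all of these genes carried the mark in every H3K27ac library. A summit within 1 kb of either gene end was present in all 7 libraries for 9 of the 10 genes, against 34.7% of all protein-coding genes. The exception was Batf3, which had none in DMSO replicate 2 and pracinostat replicate 1. Over the wider window, the gene span plus 20 kb on each side, all 10 genes had a summit in all 7 libraries, as did 67.1% of genes. IgG summits were rare at the same gene ends: Fos had one in pracinostat replicate 2 and Maff in DMSO replicate 1, and the other 8 genes had none in the 7 IgG libraries, like 91.3% of all genes. In the wider window Fosl2, Jun, Junb and Atf3 had no IgG summit, Jund, Maff and Bach1 had IgG summits in 1 library each, and Fos, Fosb and Batf3 in 2 libraries each. Of all genes, 28.3% had none there, 31.8% had them in 1 library and 21.2% in 2 libraries.

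Percentiles at gene ends were computed among 13491 genes that had a summit there in at least 3 of the 7 libraries, which all 10 factors did. The order of the means over all 7 libraries ran from Junb at 93.2 ± 4.43 (SD, n = 7) through Jund at 87.5 ± 9.001, Jun at 87.2 ± 13.1, Fos at 86.9 ± 8.39, Fosl2 at 83.8 ± 10.6 and Atf3 at 81.7 ± 8.36. Bach1 followed at 65.6 ± 23.2, Maff at 60.5 ± 18.5, Fosb at 52.8 ± 13.3 and Batf3 at 26.5 ± 14.1. Neighbours in this order differed by less than the larger of their SDs, apart from Fosb and Batf3, and Fosb was above Batf3 in each of the 7 libraries. Junb was the only one of the 10 with a mean over 90, as 4.28% of ranked genes had, and the only one over 75 in all 7 libraries, as 5.24% had. These windows have similar widths, so levels can be set side by side between genes, with a limit at Maff. Its start at base 79348402 lies outside them, as does the region centred 1876 bases after its first start, with a mean percentile of 81.9 among ranked regions. Jund and Maff also share end windows with Iqcn and Tmem184b. The plot of percentiles by gene shows the libraries of both groups interleaved for every gene.

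**Figure D1:**
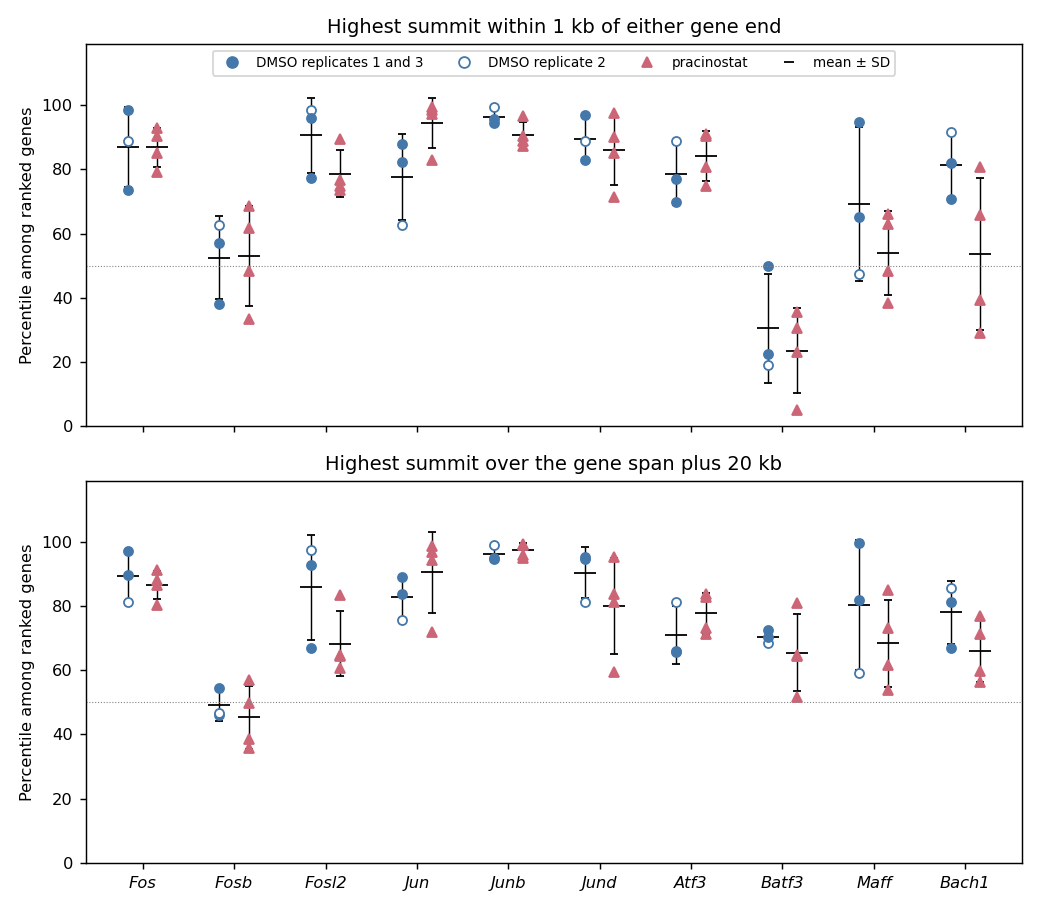
Within-library percentile of the highest H3K27ac summit for each of the 10 genes, within 1 kb of either gene end (top) and over the gene span plus 20 kb (bottom), with 3 DMSO libraries (circles, replicate 2 open) and 4 pracinostat libraries (triangles), black dashes for group means and bars for SD. Junb is high in every library in both windows, and Jun in pracinostat replicate 3 lies at 82.8 below the other pracinostat libraries in the top panel.

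The number of summits gave a second view of how much of each locus was marked. Lists were cut to the 30000 highest summits of each library, which in DMSO replicate 2 took in 11425 summits drawn at random from those tied at its lowest score, and in the other 6 libraries none, and summits in the gene span plus 20 kb were counted per 10 kb of window. Junb had 5.26 summits per 10 kb in the mean of the 7 libraries and ranked 5 among 21883 genes, behind Gpr146, Ndufs8, Aldh3b1 and Lrrc25. Its percentile by this density was 99.67 to 100 across libraries. The Junb window also holds ends of Rnaseh2a, Prdx2 and Hook2, while the windows of Fos and Jun hold no end of another gene. The median gene had 0.117 summits per 10 kb. Fos had 2.31 per 10 kb and ranked 408, Jun had 1.32 and ranked 1538, and Fosb had 0.392 and ranked 6548. The remaining 6 genes had 0.652 to 1.20 per 10 kb, with Fosl2 the lowest of them and Maff the highest.

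The Fos family proteins dimerize with Jun proteins and form no stable dimers among themselves. Fos, at chr12:85473890-85477274 on the plus strand, is the founding immediate early gene of the family. Its gene-end percentiles were 73.7, 88.7 and 98.5 in DMSO replicates 1 to 3 and 85.2, 90.2, 93.0 and 79.1 in pracinostat replicates 1 to 4. The pracinostat libraries lay inside the DMSO range. The difference, pracinostat minus DMSO, was −0.178 ± 0.422 (SE) in normal-score units, with a limma p of 0.676 and an adjusted p of 0.970. A normal score is the percentile turned into units of a standard normal distribution, so that a gap near the top of the list is not squeezed. The highest Fos gene-end summit lay 185 to 274 bases before the start in 6 of the 7 libraries, farther from the start than the TATA box printed above, with a tied summit 5 bases before the start in pracinostat replicate 4. In DMSO replicate 2 it lay 2590 bases after the start.

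A distal element at Fos was marked as strongly as its promoter. A region at chr12:85454736-85455864, centred 18590 bases before the start and away from any end of another gene, had percentiles of 97.8, 91.1 and 99.5 among 48328 ranked regions in DMSO. It had 94.8, 97.5, 98.1 and 96.9 in pracinostat. The highest summits in it lay between 18813 and 18408 bases before the Fos start, a spread of 405 bases over the 7 libraries. All 7 libraries placed it above the 90th percentile, the groups overlapped, and the difference was −0.0930 ± 0.398 (SE; limma adjusted p = 0.977), or −0.408 without DMSO replicate 2. An IgG summit lay in it in 1 library. The promoter region, centred 21 bases after the start, had 88.7, 91.1 and 99.5 in DMSO and 92.9, 96.6, 96.9 and 89.8 in pracinostat. The distal region was above it in DMSO replicate 1 and in all 4 pracinostat libraries, and level with it in DMSO replicates 2 and 3. A region 16083 bases after the start was also among the 30000 highest summits in all 7 libraries.

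At the 3′ end of Fos the groups did not overlap. The region at chr12:85475829-85476796 had percentiles of 63.1, 95.6 and 62.0 in DMSO and 54.4, 27.4, 41.6 and 42.1 in pracinostat. It was among the 30000 highest summits in all 3 DMSO lists and in no pracinostat list, which held for 0.156% of 60428 regions. The difference of −1.01 ± 0.491 (SE) had an unadjusted limma p of 0.0401 and an adjusted p of 0.893. It was −0.546 without DMSO replicate 2, with a p of 0.342. No region of the 10 genes was in all 4 pracinostat lists and no DMSO list, as 0.283% of regions were.

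Fosb, at chr7:19302696-19310118 on the minus strand, encodes a Fos paralogue known for a long-lived splice form in neurons. At its ends Fosb had percentiles of 38.1, 62.6 and 56.9 in DMSO and 48.3, 68.5, 61.7 and 33.2 in pracinostat. The means, 52.5 ± 12.8 (SD, n = 3) and 52.9 ± 15.6 (SD, n = 4), were the closest of the 10 genes after Fos, and the libraries of both groups were interleaved. The difference was 0.0119 ± 0.359 (SE; limma adjusted p = 0.999). Its strongest region, centred 354 bases before the start, had a mean percentile of 62.1. The region with its smallest p, 8635 bases before the start, had 38.1, 25.1 and 81.7 in DMSO and 9.02, 39.8, 10.7 and 30.2 in pracinostat. DMSO replicate 2 and pracinostat replicates 1 and 3 held no summit there. Their values are the bottom rank, which differs between libraries. The high library was DMSO replicate 3, and the difference of −0.815 ± 0.564 (SE; limma adjusted p = 0.893) was −0.352 without it.

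Fosl2, at chr5:32136472-32157840 on the plus strand, encodes Fra-2, a Fos protein without the strong activation domain of Fos. The Fosl2 percentiles at gene ends were 77.2, 98.4 and 96.1 in DMSO and 74.9, 89.5, 76.7 and 73.4 in pracinostat. DMSO replicates 2 and 3 were above every pracinostat library, and replicate 1 lay among them. The means were 90.6 ± 11.6 (SD, n = 3) and 78.7 ± 7.38 (SD, n = 4), a gap of −11.9 percentile points, or −7.98 without DMSO replicate 2. The difference of −0.729 ± 0.416 (SE) had a limma p of 0.0857 and an adjusted p of 0.844. Over the gene span plus 20 kb the means were 85.8 ± 16.4 and 68.3 ± 10.2, the difference was −0.784 ± 0.375 (SE), and the unadjusted limma p of 0.0472 became 0.846 after adjustment. Without DMSO replicate 2 it was −0.457 with an unadjusted p of 0.247. The highest summit at the Fosl2 gene ends lay 441 to 656 bases before the start in every library. The region there, centred 423 bases before the start, was the strongest of the gene and had its smallest p. Its percentiles were 90.7, 99.5 and 98.5 in DMSO and 86.4, 96.3, 87.7 and 86.1 in pracinostat, with overlap. The difference was −0.741 ± 0.412 (SE), with a limma adjusted p of 0.893, and −0.467 without DMSO replicate 2.

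Jun proteins can pair with each other as well as with Fos and ATF proteins. Jun, at chr4:95049036-95052222 on the minus strand, is the most strongly activating of the 3 Jun proteins and is phosphorylated by the JNK kinases. Jun had gene-end percentiles of 82.2, 62.6 and 87.9 in DMSO and 98.4, 99.4, 82.8 and 97.1 in pracinostat. The pracinostat libraries 1, 2 and 4 were above every DMSO library, and replicate 3 lay within the DMSO range. The means were 77.6 ± 13.3 (SD, n = 3) and 94.4 ± 7.80 (SD, n = 4), a gap of 16.9 percentile points, or 9.37 without DMSO replicate 2. The difference of 1.07 ± 0.434 (SE) had an unadjusted limma p of 0.0178 and did not pass adjustment over all ranked genes (adjusted p = 0.777). Without DMSO replicate 2 it was 0.823 ± 0.483 with an unadjusted p of 0.0945, and without pracinostat replicate 2 it was 0.856 with a p of 0.0689.

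The position of the strongest Jun summit differed between libraries as well. In the region covering the Jun promoter, chr4:95050489-95054177, it lay 78, 30, 12 and 18 bases before the start in pracinostat replicates 1 to 4. The TGACATCA element in the Jun sequence printed above, 45 to 38 bases before the start, lies among these positions. In DMSO replicates 1 and 3 it lay 1135 and 1180 bases before the start, just outside the window of 1 kb, and in DMSO replicate 2 summits 722 bases after and 1131 bases before the start were tied. All 4 pracinostat libraries had their strongest summit in this region closer to the start than any DMSO library, a pattern seen after the values and not tested. Within the 1 kb window the highest DMSO summits lay 335 and 17 bases before the start and 722 bases after it. The gene-end difference depended on this window: it was 1.45 with 500 bases and 0.589 with 2.5 kb, where the unadjusted limma p was 0.177. DMSO replicate 2 held no Jun summit within 500 bases of either end and was at the bottom rank there. With 2.5 kb it took in its highest summit, 2169 bases after the start. Differences without that library are not given for these 2 windows. As a whole the region had percentiles of 96.3, 77.7 and 97.5 in DMSO and 99.4, 99.8, 91.5 and 98.8 in pracinostat, with overlap and a limma adjusted p of 0.893. Its normal-score gap was 0.735, and 0.365 once DMSO replicate 2 was left out. In the wider window the Jun difference was 0.592 ± 0.406 (SE), with an unadjusted limma p of 0.158 and an adjusted p of 0.897. With no flank, which leaves out all bases before the start, it was −0.710 with an unadjusted p of 0.0340.

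**Figure D2:**
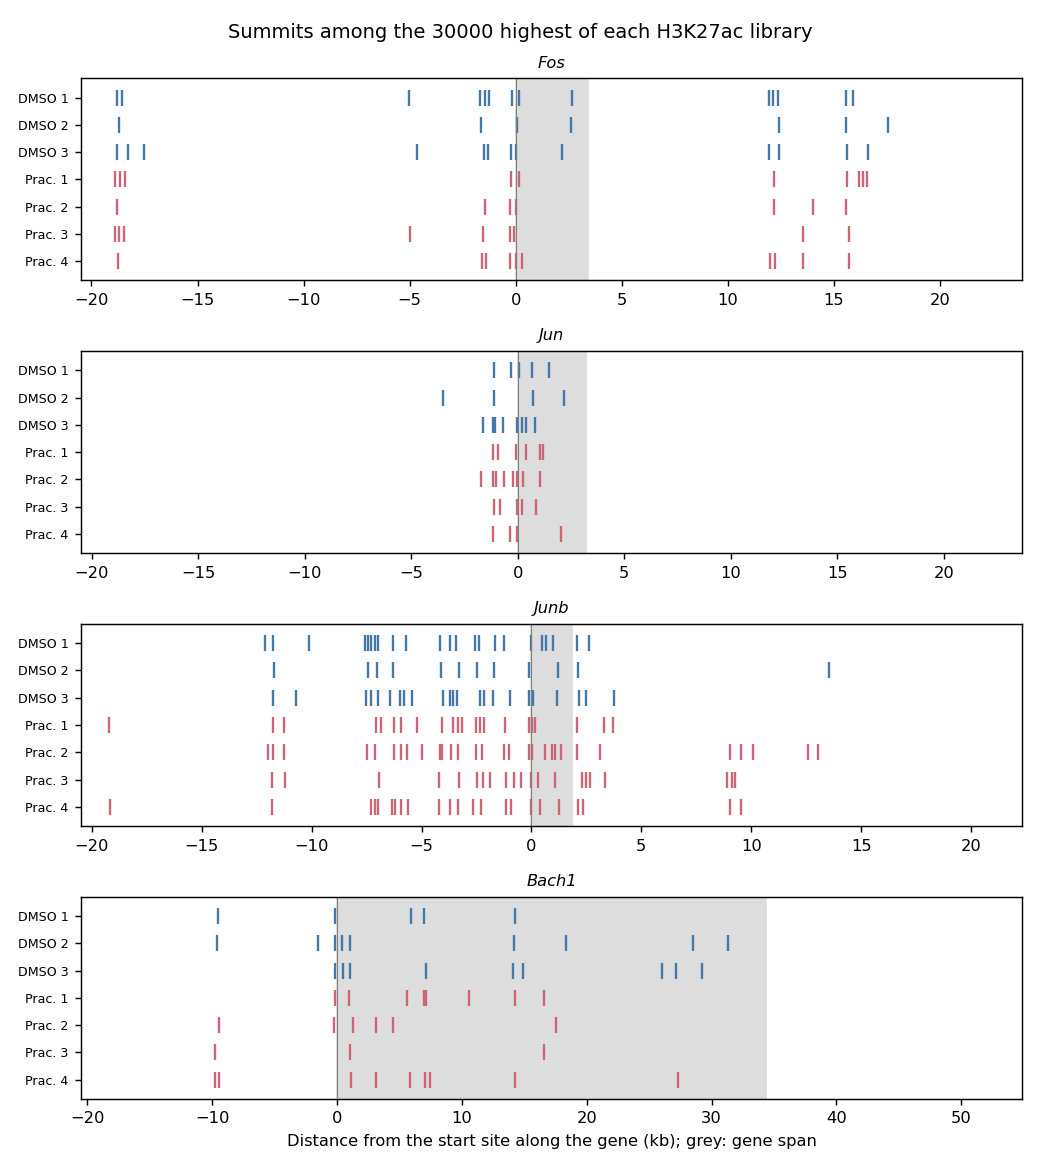
Positions of the summits among the 30000 highest of each H3K27ac library around Fos, Jun, Junb and Bach1, as distance from the start site along the gene in kb, with 1 row per library (DMSO blue, pracinostat red) and the gene span in grey. The Fos summits about 18.6 kb before the start appear in all 7 rows, the Fos summits near the 3′ end appear in the 3 DMSO rows only, and Junb summits crowd the stretch before its start.

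Junb, at chr8:84976909-84978748 on the minus strand, encodes a Jun protein that can limit Jun-driven transcription and is induced by interleukin and interferon signals in myeloid cells. The gene ends of Junb reached percentiles of 94.4, 99.3 and 95.5 in DMSO and 88.7, 90.2, 96.6 and 87.4 in pracinostat. Pracinostat replicate 3 lay among the DMSO libraries and the other pracinostat libraries lay below them. The difference was −0.543 ± 0.429 (SE), with an unadjusted limma p of 0.212 and an adjusted p of 0.889, and was −0.275 without DMSO replicate 2. In the wider window the sign was the opposite, 0.215 ± 0.419 (SE), or 0.435 without DMSO replicate 2, with means of 96.1 ± 2.42 (SD, n = 3) and 97.3 ± 2.199 (SD, n = 4). That window also holds ends of Rnaseh2a, Prdx2 and Hook2.

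The Junb locus carried a chain of strong elements. Its region over the promoter, chr8:84977132-84983215, had percentiles of 99.0, 99.8 and 98.3 in DMSO and 99.9, 99.2, 99.8 and 97.6 in pracinostat, the highest mean of any region of the 10 genes at 99.1. A second region, centred 6276 bases before the start, had a mean of 98.3. Its highest summit lay 6928 to 7132 bases before the start in the 7 libraries. Neither held an IgG summit. Summits in the Junb window among the 30000 highest numbered 23, 12 and 23 in DMSO and 22, 30, 21 and 23 in pracinostat. DMSO replicate 2 was the low library, and the other DMSO libraries lay in the pracinostat range. A region 9208 bases after the start, at the ends of Rnaseh2a and Prdx2, was in 3 pracinostat lists and no DMSO list. Its percentiles were 56.4, 60.9 and 37.9 in DMSO and 58.1, 86.9, 80.8 and 86.1 in pracinostat, a difference of 0.777 ± 0.480 (SE) with a limma adjusted p of 0.893.

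Jund, at chr8:70697739-70700616 on the plus strand, encodes the most constitutively expressed Jun protein. Jund stood at gene-end percentiles of 82.9, 88.7 and 97.0 in DMSO and 97.6, 89.9, 71.4 and 85.1 in pracinostat. The highest and the lowest value were both in pracinostat, and the difference was −0.132 ± 0.425 (SE; limma adjusted p = 0.976). Its strongest region lay 1054 bases after the start, inside the gene, with a mean percentile of 94.2 and no IgG summit. A weaker region 1742 bases before the start held a summit in all 4 pracinostat libraries, at percentiles of 50.3, 48.1, 56.5 and 64.2, and in no DMSO library. It entered the ranking through the pracinostat libraries alone, so its values are a description. Iqcn shares the end window of Jund, and the highest gene-end summit of DMSO replicate 2 lay 3765 bases after the Jund start, beyond the gene.

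ATF and BATF factors are bZIP partners with other DNA preferences. Atf3, at chr1:191170296-191183333 on the minus strand, encodes a stress-induced ATF protein that restrains inflammatory genes in macrophages. Its gene-end percentiles were 69.7, 88.7 and 77.0 in DMSO and 74.9, 80.7, 90.9 and 90.3 in pracinostat. The libraries were interleaved, with means of 78.5 ± 9.57 (SD, n = 3) and 84.2 ± 7.73 (SD, n = 4) and a difference of 0.221 ± 0.397 (SE; limma adjusted p = 0.958), or 0.415 without DMSO replicate 2. The promoter region, which covers the start site and the TTACGTCA element printed above, was in all 7 lists with a mean percentile of 91.6. The region with the smallest p, 10948 bases before the start, held a summit in pracinostat replicates 2, 3 and 4, at percentiles of 91.3, 50.7 and 30.2, and in no DMSO library. It too was ranked through pracinostat libraries alone, and its difference of 0.953 was 0.460 without pracinostat replicate 2.

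Batf3, at chr1:191098414-191108943 on the plus strand, encodes a factor needed for a class of dendritic cells that present antigen to cytotoxic T cells. It had the weakest gene ends of the 10, with percentiles of 22.6, 19.0 and 50.04 in DMSO and 5.15, 30.5, 35.5 and 23.0 in pracinostat. DMSO replicate 2 and pracinostat replicate 1 are at the bottom rank because no summit was listed there, and the other libraries were interleaved. The difference was −0.269 ± 0.376 (SE; limma adjusted p = 0.948). The wider window held stronger elements, with percentiles of 51.7 to 81.0. The strongest, 12814 bases before the start, is at an end of the neighbouring gene Nsl1: its percentiles were 92.6, 91.1 and 91.1 in DMSO and 87.8, 89.7, 56.5 and 76.7 in pracinostat. The groups did not overlap there (−0.548 ± 0.442, SE), with an unadjusted limma p of 0.214 and an adjusted p of 0.893. The region with the smallest p, 13178 bases after the start, had 81.2, 25.1 and 85.8 in DMSO and 87.8, 84.8, 91.5 and 74.1 in pracinostat. The low library was DMSO replicate 2, which held no summit there and was at the bottom rank. The difference of 0.625 ± 0.461 (SE; limma adjusted p = 0.893) was 0.0762 without that library.

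Small Maf proteins and the CNC factor Bach1 form dimers that bind antioxidant response elements, and Bach1 is released by heme. Maff, at chr15:79346621-79359078 on the plus strand, encodes a small Maf protein induced by inflammatory signals. The ends of Maff lay at percentiles of 65.2, 47.4 and 94.7 in DMSO and 63.1, 66.1, 38.2 and 48.4 in pracinostat. DMSO replicate 3 was far above the rest, and the other DMSO libraries lay within the pracinostat range. The means were 69.1 ± 23.9 (SD, n = 3) and 54.0 ± 13.1 (SD, n = 4), and the difference of −0.546 ± 0.389 (SE) had a limma p of 0.167 and an adjusted p of 0.877. Without DMSO replicate 2 the gap widened from −15.1 to −26.0 percentile points, the difference was −0.903 and the unadjusted limma p was 0.0324. Without DMSO replicate 3 it was −0.0595 with a p of 0.884. In the wider window the difference was −0.718 ± 0.429 (SE; limma adjusted p = 0.890), −1.22 without DMSO replicate 2 and −0.0598 without DMSO replicate 3. Tmem184b shares the end window of Maff, and the strongest region of the wider window, 18778 bases before the start, is at an end of Pla2g6. That region had percentiles of 95.7, 86.7 and 99.9 in DMSO and 89.0, 88.1, 96.3 and 81.1 in pracinostat, and its difference of −0.707 ± 0.414 (SE; limma adjusted p = 0.893) was −1.14 without DMSO replicate 2 and −0.147 without DMSO replicate 3.

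Bach1, at chr16:87698954-87733346 on the plus strand, had gene-end percentiles of 70.7, 91.5 and 82.0 in DMSO and 65.7, 80.7, 28.9 and 39.3 in pracinostat. Pracinostat replicates 1, 3 and 4 were below every DMSO library, and replicate 2 lay within the DMSO range. The means were 81.4 ± 10.4 (SD, n = 3) and 53.6 ± 23.8 (SD, n = 4), the widest gap in percentile points among the 10, −27.8, or −22.7 without DMSO replicate 2. The difference of −0.834 ± 0.391 (SE) had an unadjusted limma p of 0.0378 and an adjusted p of 0.8003. Without DMSO replicate 2 it was −0.620 with a p of 0.134, and without pracinostat replicate 3 it was −0.612.

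The Bach1 gap was smaller over the gene span plus 20 kb, −0.373 ± 0.324 (SE; limma adjusted p = 0.924). The strongest Bach1 region, 843 bases after the start, had 56.4, 96.8 and 95.2 in DMSO and 78.9, 73.9, 93.6 and 68.0 in pracinostat. Its difference was −0.369 ± 0.445 (SE; limma adjusted p = 0.919), and −0.0541 without DMSO replicate 2. A region inside the gene, 18328 bases after the start, had the smallest unadjusted p of all 85 ranked regions, 0.0103, with percentiles of 27.9, 95.6 and 59.1 in DMSO and 23.1, 7.43, 10.7 and 34.2 in pracinostat. Pracinostat replicates 2 and 3 held no summit there, so their values are the bottom rank of each library. The high value there was that of DMSO replicate 2, and the difference of −1.41 ± 0.549 (SE) was −0.780 without it, with a limma p of 0.218.

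Across the 10 genes at gene ends, 3 had a higher and 7 a lower mean normal score with pracinostat, where 48.6% of all ranked genes were higher. The median difference was −0.223, against −0.0147 over all genes. None passed an adjusted p of 0.05 in limma, where 0% of the 13491 ranked genes did and the lowest adjusted p of any gene was 0.0711. At an unadjusted p under 0.05 there was 1 higher (Jun) and 1 lower (Bach1), against 2.74% and 3.42% of all genes, or 6.17% in either direction. Adjusted p-values ran from 0.777 to 0.999. The groups did not separate for any of the 10, as they did, higher or lower with pracinostat, for 2.88% and 3.79% of genes. Over the gene span plus 20 kb, 3 were higher and 7 lower, with a median of −0.177 against −0.00719 over 18744 ranked genes, of which 49.1% were higher. There none passed the adjusted limma threshold, as 0% of all genes, and 1 (Fosl2, lower) had an unadjusted p under 0.05, where 2.86% of all genes did in the higher, 3.02% in the lower and 5.89% in either direction. In that window too the groups overlapped for all 10, whereas they separated for 3.1% of genes in the higher and 3.18% in the lower direction. Adjusted p-values in that window ran from 0.846 to 0.969. Without DMSO replicate 2 the gene-end differences of genes not yet given so were −0.240 for Fos, 0.140 for Fosb, −0.433 for Fosl2, −0.202 for Jund and −0.437 for Batf3. In the wider window they were −0.469 for Fos, −0.128 for Fosb, 0.456 for Jun, −0.693 for Jund, 0.368 for Atf3, −0.147 for Batf3 and −0.238 for Bach1. The plot of differences shows both windows together.

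**Figure D3:**
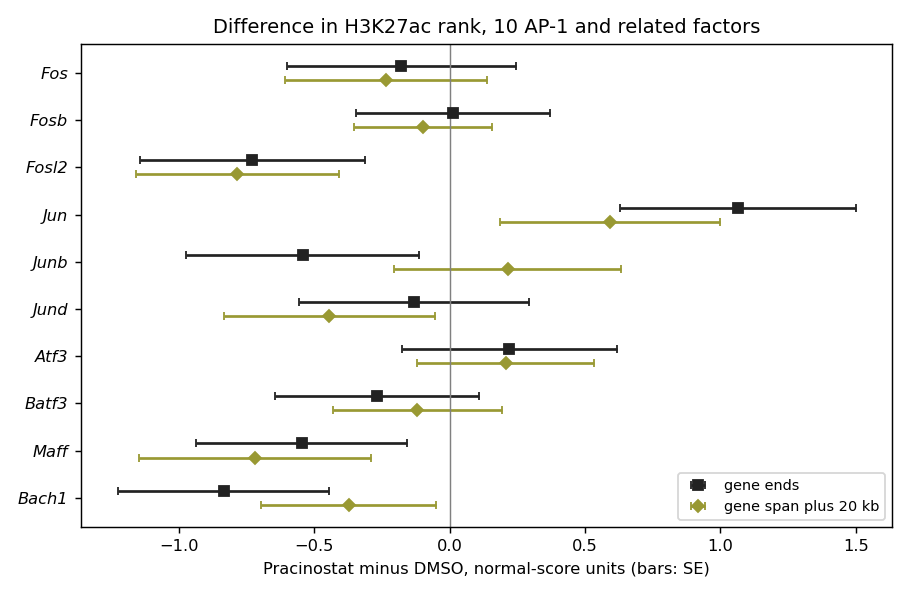
Difference in H3K27ac rank, pracinostat minus DMSO, in normal-score units for each of the 10 genes, at gene ends (squares) and over the gene span plus 20 kb (diamonds), with bars for SE and a line at 0. Jun at 1.07 and Bach1 at −0.834 lie farthest from 0 at gene ends, and Junb has opposite signs in the 2 windows.

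The number of summits among the 30000 highest did not pass the test for any gene (exact permutation test over 35 splits, smallest possible p 0.0286, lowest adjusted p 0.939 over the 10 genes and 0 with an unadjusted p under 0.05). Fosl2 had the smallest p, 0.171 by the exact permutation test, with 5, 5 and 4 summits in DMSO and 3, 4, 3 and 4 in pracinostat. In DMSO replicate 2 the summits 18633 bases before and 24943 bases after the start were drawn from those tied at its lowest score. Among the 20000 highest summits Fosl2 had 3, 3 and 3 in DMSO and 3, 3, 3 and 2 in pracinostat. Among the 30000 highest, Batf3 had 4, 2 and 7 in DMSO and 7, 6, 5 and 10 in pracinostat (exact permutation p = 0.229). Fos had 14, 7 and 13 in DMSO and 10, 7, 9 and 10 in pracinostat. Jun had 5, 4 and 8 in DMSO and 6, 8, 5 and 4 in pracinostat.

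**Figure D4:**
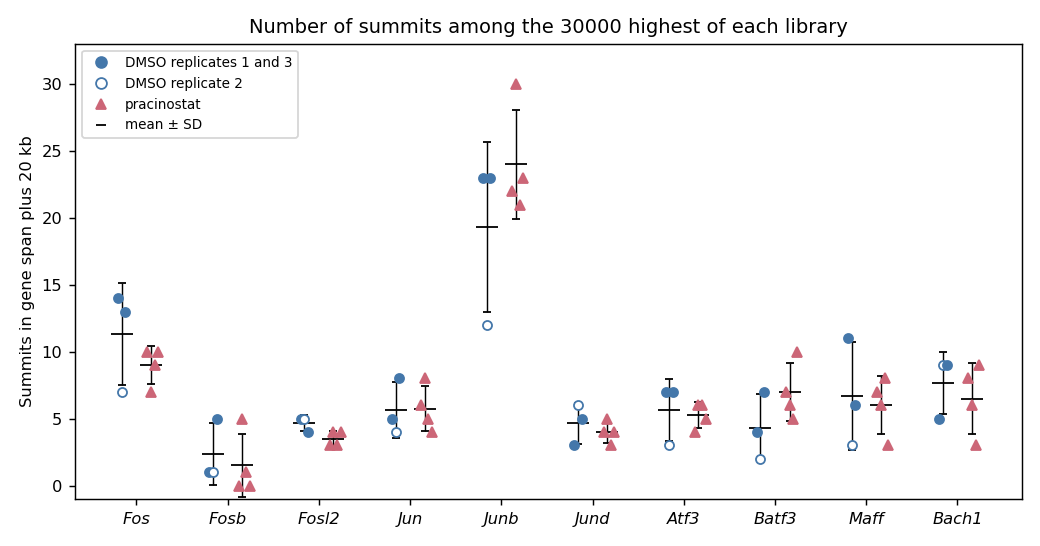
Number of H3K27ac summits among the 30000 highest of each library in the gene span plus 20 kb of each gene, with 3 DMSO libraries (circles, replicate 2 open) and 4 pracinostat libraries (triangles), dashes for group means and bars for SD. Junb has 12 to 30 summits per library, more than any of the other 9 genes, and the groups overlap for Junb, Fos and Jun.

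The windows of the 10 genes held 102 regions, of which 85 were ranked. Of the 102, 12 were in all 7 lists of the 30000 highest summits, where 8.39% of all regions were: 4 at Junb, 3 at Fos and 1 each at Fosl2, Jun, Jund, Atf3 and Maff. Regions at a member's own ends made up 18, of which 7 were in all 7 lists, among them a Junb region also within 1 kb of an end of Prdx2. Those at ends of other genes only made up 8, of which 2 were in all 7 lists. These lay at Hook2 in the Junb window and at Pla2g6 in the Maff window. Those elsewhere in the windows and away from other gene ends made up 76, of which 3 were in all 7 lists and 44 in 1 list only. Among the 85 ranked, 43 were higher and 42 lower with pracinostat, with a median difference of 0.00411 against −0.00116 over all regions. None passed the adjusted limma threshold, as 0.00414% of all regions did, and at an unadjusted p under 0.05 there was 1 higher and 2 lower, against 2.61% and 2.59% of all regions, or 5.2% in either direction. The groups did not overlap at 4 regions that were higher and 2 that were lower, against 3.34% and 3.06% of all regions. Of the 85, 5 were ranked through pracinostat libraries alone, and these included the 1 higher region at that p (Jund) and 1 of the 4 without overlap. IgG summits lay in 7 of the 102, and the share over all regions is not given.

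**Figure D5:**
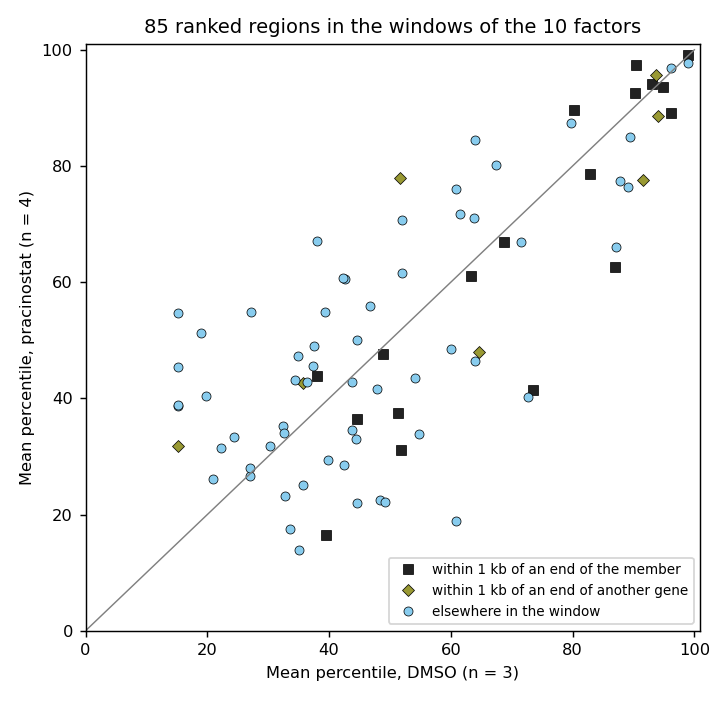
Mean within-library percentile of the 85 ranked regions in the windows of the 10 genes, DMSO (n = 3) on the horizontal axis and pracinostat (n = 4) on the vertical axis, by place of the region (member's own end, another gene's end, elsewhere), with the line of equal values. The strongest regions, up to 99.1, sit near the line, and 43 regions lie on the higher side by normal score and 42 on the lower.

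Other genes of the same pathways were read from lists at gene ends, and none passed the adjusted limma threshold in any list. Of 25 other bZIP factors, 9 were higher and 16 lower, 0 with an unadjusted p under 0.05, and the list means were 65.4 ± 0.962 (SD, n = 3) in DMSO and 62.2 ± 2.05 (SD, n = 4). Atf4, the factor of the integrated stress response, had the most negative difference, −0.851 ± 0.435 (SE), and Jdp2, a repressive Jun partner, the most positive, 0.298 ± 0.350. Of 16 ranked of 17 MAP kinase cascade genes, which carry the signals to AP-1, 8 were higher and 8 lower. At an unadjusted limma p under 0.05 there was 1 higher and 2 lower, against 2.74% and 3.42% of all ranked genes. Map2k3, a kinase that activates p38, had means of 86.3 ± 8.39 and 97.4 ± 3.44 with an unadjusted limma p of 0.0249 (adjusted p = 0.777), and Map3k7, which encodes TAK1, had 82.3 ± 25.7 and 60.6 ± 10.99 with 0.0187 (adjusted p = 0.777).

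Serum response factor and its ternary complex partners bind the promoters of immediate early genes. Of the 6 genes in that list, 1 was higher and 5 lower, 2 of the lower ones with an unadjusted limma p under 0.05, where 3.42% of all ranked genes were lower at that p and 48.6% higher in the mean. Srf had 38.1, 72.3 and 33.3 in DMSO and 22.3, 26.7, 22.0 and 12.1 in pracinostat. Every pracinostat library was below every DMSO library, as for 3.79% of ranked genes. The difference was −0.784 ± 0.357 (SE), with an unadjusted limma p of 0.0326 and an adjusted p of 0.796. DMSO replicate 2 was the high library, and no value without it is given. Over the gene span plus 20 kb, 1 gene of this list was higher and 5 lower. There 0 had an unadjusted limma p under 0.05, and Elk1 had the most negative difference. At gene ends Mrtfa, an actin-regulated partner of serum response factor, had means of 51.9 ± 9.92 and 76.1 ± 14.7 (0.708 ± 0.377, SE; limma adjusted p = 0.808). Of 21 other immediate early genes, 7 were higher and 14 lower, 0 with an unadjusted limma p under 0.05, with Egr2 the lowest at −0.556 and Dusp6, a phosphatase of ERK, the highest at 0.402. Of 10 ranked of 12 oxidative stress and heme response genes, to which the Bach1 targets belong, 5 were higher and 5 lower, from Gclc at −0.412 to Prdx1 at 0.541.

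The genes whose gene-end pattern was most like that of Jun over the 7 libraries were Zfp128 (Pearson r = 0.985 across libraries) and Lsm8 (0.969), and 12 of 13490 genes were above 0.95. For Bach1 they were Slpi (0.980) and Krtcap3 (0.970), with 7 genes above 0.95. These are descriptions over 7 libraries that include the gap of DMSO replicate 2.

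Mean percentiles of cell type marker lists at gene ends are given by library as a description, with no test of the list means between groups. Limma p-values of single markers come from the fit over all ranked genes. The 14 microglia and macrophage markers had a mean percentile of 62.2 to 66.3 in the DMSO libraries and 67.5 to 79.1 in pracinostat, with 13 of 14 higher. Of 15 neutrophil markers 12 were ranked, Ly6g, Retnlg and Mmp9 having too few summits, and the mean was 26.9 to 38.1 in DMSO and 17.4 to 25.2 in pracinostat, with 10 of 12 lower and 3 of these at an unadjusted limma p under 0.05, against 3.42% of all genes. None passed adjustment. In the wider window the ranges overlapped for neutrophil markers, 37.5 to 41.6 and 34.9 to 40.6, and for microglia and macrophage markers, 73.1 to 80.7 and 79.8 to 85.0, with 10 of 14 higher. Dendritic cell markers had 27.2 to 32.9 in DMSO and 33.02 to 41.4 in pracinostat (8 of 8 ranked), and in the wider window 4 were higher and 4 lower, with overlap. The ranges overlapped for monocyte (3 of 6 ranked), lymphocyte and NK cell (5 of 8), oligodendrocyte (3 of 8), neuron and astrocyte (3 of 8) and endothelial and mural cell markers (5 of 8). The part of this in the Jun, Fosl2, Maff and Bach1 values was not tested. In sorted bulk cells, fewer cells of a type and less of the mark per cell cannot be told apart.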

How the data were processed

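H3K27ac and IgG CUT&Tag summits from 14 libraries (3 DMSO and 4 pracinostat for each antibody) were analysed on mm10. The authors' deposited score per summit is a −log10 p or q value, which of them is not given in the sources used here, and it is not normalized between libraries. Bowtie2, MACS2 2.2.9.1, HOMER and DESeq2 are named in the submitters' processing notes, without their roles; thresholds and any use of IgG in calling were also not found there. The labels give a sequencing target but no read totals.

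Each gene took its highest score within 1 kb of either end, or over its span plus 20 kb. Ranking was within each library, over genes whose window held a summit in 3 or more H3K27ac libraries; a gene without one tied at the bottom, and ranks became normal scores. Pracinostat and DMSO were compared with limma 3.58.1 (R 4.3.3, trended and robust, no covariates) over all ranked genes, with Benjamini-Hochberg adjustment and a threshold of 0.05, and the scripts were tested on simulated data. Regions were the 30000 highest summits of each library extended by 250 bases and merged. Summit numbers were compared by a two-sided exact permutation test. P-values measure the spread between these libraries, whose animals are not given.

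All 10 genes are named; of each list of other pathway genes, the gene with the largest and the smallest difference; of each gene's regions, the strongest and the one with the smallest p; and the 2 genes most like Jun and Bach1. Other regions, the Jun summit positions and the genes ahead of Junb were chosen after their values were seen. Members and lists were chosen with earlier results of these data known. Replicate numbers showed no pairing of the libraries (correlations of deviations −0.0543, 0.000646 and −0.0235), and the main fits did not pair them. Such values cannot exclude a shared day or batch, on which the labels used here give nothing.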

Additional observations from a re-analysis of the deposited data

Results flagged for a closer look

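In 30 groups of 4 pracinostat values checked for a library far from the others, 2 were found. The rule flags about 1 in 20 by chance for independent, normally distributed values, which these percentiles and counts are not. Both concern Jun in pracinostat replicate 3, and they rest on the same summits. In each of the 4 pracinostat libraries the highest Jun summit was the same in both windows. At gene ends its percentile was 82.8, with the other 3 pracinostat libraries at 97.1 to 99.4. Over the gene span plus 20 kb it was 71.9, with the others at 94.2 to 98.7. Without this library the Jun difference was 1.37 at gene ends and 0.918 over the gene span plus 20 kb.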

How the results depend on the processing

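None of the 10 genes, their regions or their summit numbers passed an adjusted p of 0.05 under any setting run: 17 alternatives at gene ends (lowest adjusted p 0.489 to 0.973, 0 to 3 of the 10 genes at an unadjusted p under 0.05), 17 over the gene span plus 20 kb (0.540 to 0.989, 0 to 1), 12 for regions (0.614 to 0.985, 1 to 6) and 9 for summit numbers (0.429 to 1, 0). Over all ranked features, 0 to 4 genes at gene ends, 0 to 2 genes in the wider window and 0 to 3 regions passed the adjusted limma threshold. Shares of all features at an unadjusted p under 0.05 were not computed under these settings. In the main limma fits they were 6.17%, 5.89% and 5.2%, so the member counts have no matching background. Direction turned in 18 of 168, 14 of 170 and 11 of 179 settings of single genes or regions, and the cause was not tested.

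At gene ends Fosb turned to −0.00890 with the 30000 highest summits, −0.0979 with a 500 base window and −0.124 with 2.5 kb, where Junb turned to 0.165 and Batf3 to 0.179. Jund was 0.569 with the 5′ end only. As percentile points among all summits, Fos was 1.23, Jund 0.419, Batf3 6.85 and Maff 13.6. Over the gene span plus 20 kb that scale gave Fos 0.929, Fosb 3.76, Jund 0.00185, Batf3 1.44 and Maff 2.60. For each of these genes DMSO replicate 2 had the lowest DMSO value on this scale. At gene ends Maff had 94.7, 32.6 and 99.6 in DMSO replicates 1 to 3 and 77.9 to 95.8 in pracinostat. Batf3 had 49.6, 0 (no summit) and 89.9 in DMSO and 0 to 74.8 in pracinostat. Differences without DMSO replicate 2 are not given on this scale. With no flank Fos was 0.0930, Fosb 0.187, Fosl2 0.256, Jun −0.710 and Batf3 0.381, and with 50 kb flanks Fosb was 0.0741. The Fosb region 354 bases before the start was 0.0899 with array weights and 0.168 with the summit number as covariate.

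Leaving out 1 library at a time gave, at gene ends, −0.528 to 0.235 for Fos, −0.172 to 0.182 for Fosb, −0.387 to 0.137 for Jund and −0.437 to 0.00376 for Batf3. Over the gene span plus 20 kb it gave −0.469 to 0.0448 for Fos and −0.273 to 0.00572 for Batf3. For regions it gave −0.408 to 0.200 at the distal Fos region, −0.340 to 0.274 at the Fosb region, −0.622 to 0.0193 at the Jund region 1054 bases after the start and −0.00892 to 0.363 at the Junb promoter. Jun stayed between 0.823 and 1.37 and Bach1 between −1.09 and −0.612 at gene ends.

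With the replicate number as a block, although it showed no pairing of these libraries, 0 genes were called (lowest limma adjusted p 0.931) and Jun kept an unadjusted p under 0.05. Pracinostat replicate 4 is alone in its block and adds nothing to the differences of this fit. Batf3 over the gene span plus 20 kb turned to 0.00572 and the Fosb region to 0.274, the same differences as without that library. Read depth is unknown, and the ties in DMSO replicate 2 (37.95% of genes at the bottom rank, against 6.84% to 11.2%) limit how finely low genes can be ordered there.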
